A study of Mus musculus with 6 samples.

Results

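The genes described here are the integrins and collagens of mouse embryonic stem cells, the cell surface receptors for the extracellular matrix and one of the main protein families of that matrix. The rule that picks them reads gene symbols and no measured value: every Itga and Itgb gene and every collagen chain written Col with a number, an a and a number, except the main basement membrane chains Col4a1 and Col4a2. This gave 68 of the 23999 gene symbols in the table, 26 integrin subunits (18 alpha and 8 beta) and 42 collagen chains. The first group of samples held cells kept for 6 days with 4OHT (4-hydroxytamoxifen, n = 3), and the second held cells kept for 6 days with ethanol, its vehicle (n = 3). Cells of both groups carried, by their labels, a floxed element called -5 and exogenous mNanogV5, a mouse Nanog copy with a V5 tag. 4OHT commonly serves to activate a Cre enzyme joined to an oestrogen receptor domain, and the series title concerns a Nanog enhancer. The labels name no Cre, no clone and no separate cultures, so p-values measure the spread between these samples, which may be technical. Polyadenylated RNA was sequenced, and the deposited values were read counts per gene.

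Integrins are dimers of 1 alpha and 1 beta subunit that bind matrix proteins outside the cell and, through adaptors such as talin and kindlin, actin inside it. The alpha subunit largely sets the ligand: laminin, proteins with an RGD motif such as fibronectin, collagen, or counter-receptors on other cells. Collagens are triple helices of alpha chains; fibrillar types build fibres, FACIT types sit on those fibres, and others build basement membranes or span the plasma membrane. In the early mouse embryo, laminin and collagen of the basement membrane lie between the epiblast, which embryonic stem cells resemble, and the primitive endoderm.

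The beta1 subunit is the partner of most alpha subunits expressed in these cells, and its transcript Itgb1 did not pass the test. Those of its partners moved both ways: Itga1, Itga5 and Itgav rose, Itga5 narrowly, while Itga9 and Itga3 fell. The promoters of Itgb1 and of its partners Itga1 and Itga5 are shown, since each of these 3 genes had a RefSeq start at the 5′ end of its annotated gene. Each is given as the 250 bases before that start (GRCm38.p6; the counts were made on mm9). Letters run 5′ to 3′ on the strand of the gene, and capitals mark a GC box, GGGCGG or its reverse complement CCGCCC.
Itga1, chr13:115101965-115102214, minus strand: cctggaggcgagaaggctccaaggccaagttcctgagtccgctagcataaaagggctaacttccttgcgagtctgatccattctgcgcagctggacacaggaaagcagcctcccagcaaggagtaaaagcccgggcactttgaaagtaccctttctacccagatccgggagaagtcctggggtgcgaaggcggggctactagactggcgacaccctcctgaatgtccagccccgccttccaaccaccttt
Itga5, chr15:103366792-103367041, minus strand: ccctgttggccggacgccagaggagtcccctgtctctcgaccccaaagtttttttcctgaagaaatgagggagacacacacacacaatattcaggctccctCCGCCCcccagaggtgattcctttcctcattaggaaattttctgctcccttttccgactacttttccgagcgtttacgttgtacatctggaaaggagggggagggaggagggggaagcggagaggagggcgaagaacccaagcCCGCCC
Itgb1, chr8:128685404-128685653, plus strand: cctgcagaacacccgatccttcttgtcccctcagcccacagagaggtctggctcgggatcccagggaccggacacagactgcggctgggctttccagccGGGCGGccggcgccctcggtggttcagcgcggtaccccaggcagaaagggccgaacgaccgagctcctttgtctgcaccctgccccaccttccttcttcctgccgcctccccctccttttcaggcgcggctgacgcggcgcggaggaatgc
The window of Itga5 held 2 GC boxes, that of Itgb1 held 1 and that of Itga1 held 0. A GC box was present in 32.7% of the 32851 RefSeq windows of this length. None of the 3 windows held, on either strand, a TATA box spelled TATAAA, which was found in 12.4% of all windows. Nor did they hold a CCAAT box, found in 33.9% of all windows, or a GATA motif spelled AGATAA, found in 9.99%. A match of letters is a description and not a binding site.

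Library totals were 55194644, 515388 and 31307423 counts in the 4OHT samples and 52250671, 20030423 and 26370388 counts in the vehicle samples. 4OHT replicate 2 was therefore far shallower than the other 5 libraries: 1 read in it is 1.90 CPM (read counts relative to library size, scaled by TMM factors), and 36 of the 68 members had no read in it. In that library 3 reads correspond to 5.71 CPM, in the others to between 0.0548 and 0.15 CPM. In the 4OHT means given below it counts as much as the deep libraries, so means of low genes can depart from the fit. Nanog stood at 177, 171 and 192 CPM in 4OHT samples, against 632, 662 and 646 CPM in vehicle samples, and reads of the tagged copy may be counted under the same symbol. Summed over 10 pluripotency markers, levels were 7234 to 7515 CPM in 4OHT samples and 7229 to 7402 CPM in vehicle samples. Of these, 2 rose, 3 fell and 5 did not pass, with log2 fold changes from -0.32 for Fgf4 to 0.53 for Sall4. Thus 5 of these 10 markers passed, where 21.9% of all tested genes did, although the summed levels were close. Summed over 12 primitive and visceral endoderm markers, levels were 51.4 to 68.1 CPM in 4OHT samples and 9.91 to 11.5 CPM in vehicle samples. Of these, 9 of the 10 tested rose, where 11.1% of all genes did, and 0 fell; Gata6 reached 11.3 ± 0.82 CPM in 4OHT samples against 0.714 ± 0.15 CPM in vehicle samples (SD, n = 3 each), and Ttr was at 0 in all 6 libraries. In these bulk samples, more or fewer cells of a type and more or less RNA per cell cannot be told apart, and the part of the endoderm markers in the results that follow was not tested.

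After 4OHT the integrin alpha subunit Itga9 fell, the alpha subunits Itga1 and Itgav and the collagen chains Col5a2 and Col11a1 rose, and most other members did not pass the test. Of the 68 members, 54 had at least 10 counts in replicate 1 of either group and were tested with edgeR's quasi-likelihood test. P-values were adjusted after Benjamini and Hochberg across the 15814 genes tested in the whole table. At an adjusted p under 0.05, 12 of the 54 passed (22.2%), against 21.9% of all tested genes. Higher in 4OHT were 8 members, where 11.1% of all genes were higher, and 4 were lower, where 10.8% of all genes were lower. The 2 groups did not overlap in 13 of the 54 members and in 30.2% of all genes. The share of members that passed is close to that of all tested genes, so it is no result about these families as wholes. The median log2 fold change (4OHT over vehicle) was 0.05 over the 54 members and -0.01 over all tested genes, and single members ranged from -1.15 to 2.09. Changes of at least 2-fold passed in 7 of the 54 members, Itga1, Itga9, Col5a2, Col11a1, Col6a3, Col16a1 and Col19a1, where 4.36% of all genes had them. This count is fragile. Col6a3, Col19a1 and Col16a1 rest on 30, 23 and 120 reads over all libraries, and the first 2 met the count minimum only in 4OHT replicate 1. Col11a1 lay at the 2-fold limit, with log2 fold changes from 0.96 to 1.03 under the alternative fits.

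**Figure D1:**
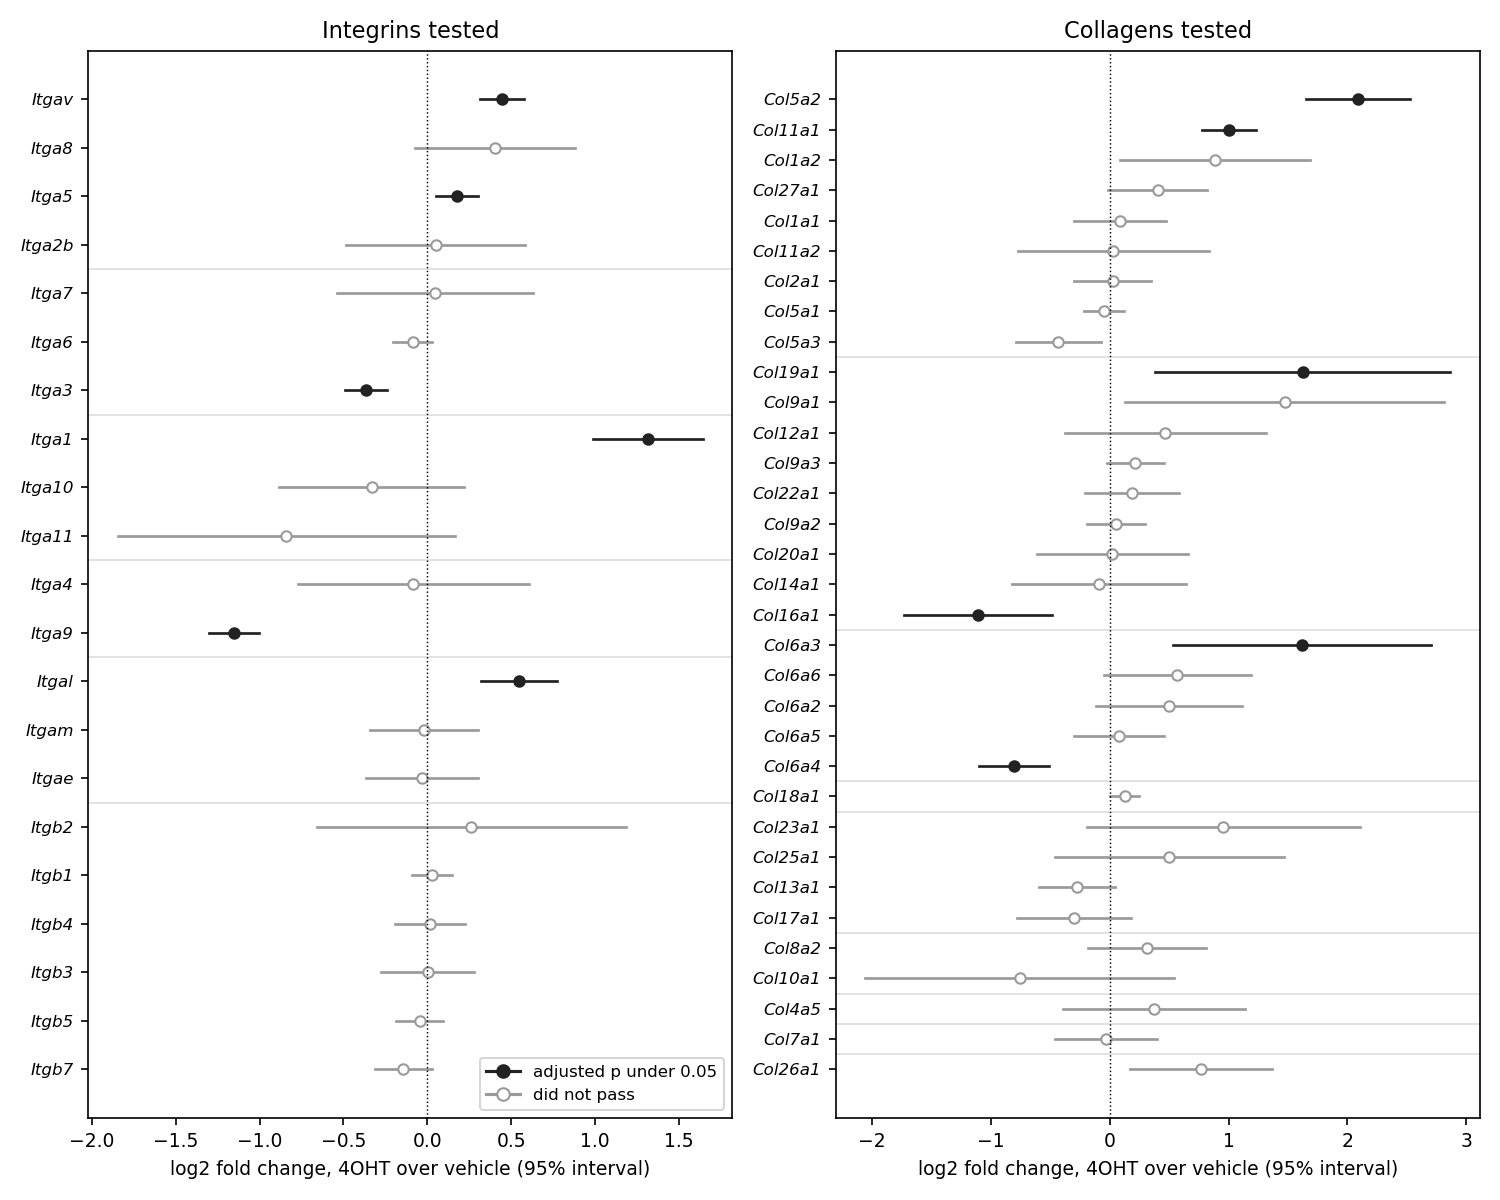
Log2 fold change (4OHT over vehicle, horizontal axis) of the 54 tested integrins and collagens, grouped by role, with 95% intervals as bars and filled points where the adjusted p was under 0.05. Col5a2 lies farthest right at 2.09 and Itga9 farthest left among the integrins at -1.15, and none of the 6 tested beta subunits is filled.

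More integrins than collagens reached high transcript levels. The mean level of the higher group was 10 CPM or more for 10 of 26 integrins and for 2 of 42 collagens, Col18a1 and Col5a1, and for 34 members it was under 1 CPM. Divided by transcript length, the order over the mean of both groups was Col18a1 with 85.7, Itga6 with 51.5 and Itgb1 with 45.8 CPM per kb. After these came Itga3 with 22.3, Itga5 with 18.5, Itgb5 with 14.5, Itgb7 with 8.21 and Itgav with 6.88 CPM per kb. Thus the transcripts of the laminin receptor α6β1 and of Col18a1, a heparan sulphate collagen of basement membranes, stood at the top of the members. Col4a1 and Col4a2 are not among these. Of the 5 called members over 10 CPM all were integrin alpha subunits, and all 3 called members under 1 CPM were collagens. The called collagen Col11a1 lay just under 10 CPM, with a mean of 9.64 CPM from 11.9, 5.71 and 11.3 CPM in 4OHT samples. Its 5.71 CPM is 3 reads in the shallow 4OHT replicate 2.

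**Figure D2:**
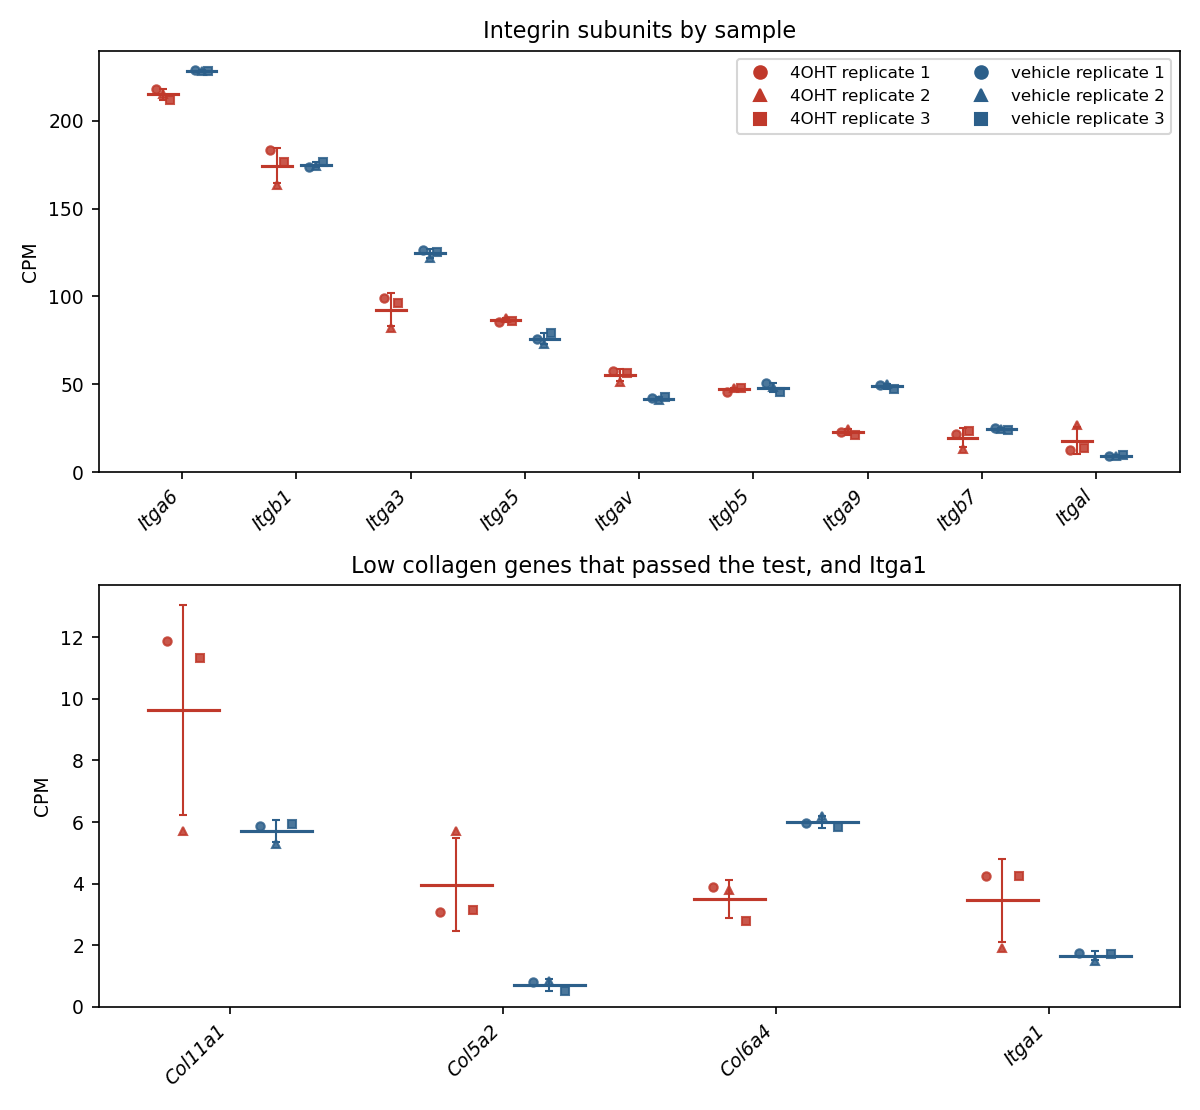
Level (CPM) of integrins (top) and of Col11a1, Col5a2, Col6a4 and Itga1 (bottom) in each library, 4OHT samples left of vehicle samples. Horizontal lines are means and whiskers SD (n = 3). The other called collagens, Col16a1, Col19a1 and Col6a3, are not drawn. Itga9 lies at 21.1 to 24.7 CPM in 4OHT samples and 47.0 to 49.9 CPM in vehicle samples, while Itgb1 overlaps between the groups.

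Among the alpha subunits, 4 rose, 2 fell and 9 did not pass, of 15 tested (40.0% called, against 21.9% of all genes). Itga9, whose product binds tenascin, osteopontin and VCAM1 with beta1, fell most. It had 22.5, 24.7 and 21.1 CPM in 4OHT samples, against 49.3, 49.9 and 47.0 CPM in vehicle samples. Every 4OHT sample lay below every vehicle sample, with a mean of 22.8 ± 1.83 CPM in 4OHT samples and 48.7 ± 1.52 CPM in vehicle samples (SD, n = 3 each). The level in 4OHT was 45% of that in vehicle, a log2 fold change of -1.15 (SE 0.07, 95% interval -1.30 to -1.0, edgeR adjusted p = 1.44e-10). Its relative Itga4, which shares ligands with it, had 0.465 ± 0.53 CPM in 4OHT samples and 0.814 ± 0.20 CPM in vehicle samples and did not pass. The log2 difference between the groups for Itga4 was -0.09 (adjusted p = 0.896), and -1.19 without 4OHT replicate 1 (adjusted p = 0.0435). The latter fit has 0 and 11 reads of Itga4 in 4OHT samples, against 40, 13 and 27 in vehicle samples.

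The laminin receptors split. Itga3, which pairs with beta1 and binds several laminins, had 99.0, 81.8 and 96.5 CPM in 4OHT samples, against 126.6, 121.9 and 125.1 CPM in vehicle samples. The groups did not overlap, and Itga3 fell to 77.6% of vehicle (log2 fold change -0.37, SE 0.06, 95% interval -0.49 to -0.24, edgeR adjusted p = 0.000139). Itga6, the most abundant alpha subunit and a laminin receptor with beta1 or beta4, had 218, 215 and 212 CPM in 4OHT samples, against 229, 228 and 228 CPM in vehicle samples. All 3 4OHT samples lay lower, but the difference of -0.09 (95% interval -0.21 to 0.03) did not pass (adjusted p = 0.298). Itga7, the laminin receptor of muscle, stayed under 1 CPM in every library and did not pass.

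The abundant RGD receptors were both higher. Itgav, which serves vitronectin and latent TGF-beta as well as fibronectin and pairs with several beta subunits, had 57.7, 51.4 and 56.7 CPM in 4OHT samples, against 41.9, 40.9 and 42.7 CPM in vehicle samples. Every 4OHT sample lay above every vehicle sample, and Itgav rose 1.36-fold (log2 fold change 0.44, SE 0.06, 95% interval 0.31 to 0.58, edgeR adjusted p = 2.03e-05). Itga5, the fibronectin receptor subunit, had 85.4, 87.5 and 86.1 CPM in 4OHT samples, against 75.9, 72.7 and 79.2 CPM in vehicle samples. It rose 1.13-fold, with no overlap (log2 fold change 0.18, SE 0.06, 95% interval 0.05 to 0.30, edgeR adjusted p = 0.0424). This call is a narrow one: the adjusted p was 0.288 with DESeq2 and 0.0564 with limma-voom, and 0.102, 0.24 and 0.0609 without vehicle replicate 1, 2 or 3. Itga8 and Itga2b, the RGD subunits of kidney mesenchyme and platelets, averaged 1.26 ± 1.09 and 0.575 ± 0.51 CPM in 4OHT samples and 1.35 ± 0.48 and 0.833 ± 0.12 CPM in vehicle samples, and neither passed.

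Of the collagen receptors, Itga1, which with beta1 binds collagen IV in particular, rose. It had 4.24, 1.90 and 4.23 CPM in 4OHT samples, against 1.76, 1.5 and 1.73 CPM in vehicle samples. The groups did not overlap, though the lowest 4OHT value rests on 1 read in the shallow library. The level was 2.49-fold higher (log2 fold change 1.31, SE 0.16, 95% interval 0.99 to 1.64, edgeR adjusted p = 2.12e-06). Itga10 and Itga11, collagen receptors of cartilage and of mesenchymal cells, gave log2 differences of -0.33 and -0.84 and did not pass. Itga11 had 18, 1 and 2 reads in 4OHT samples, against 31, 6 and 7 in vehicle samples. Without 4OHT replicate 1, Itga11 passed (-2.12, adjusted p = 0.0174), but on only 1 and 2 reads in the 4OHT samples left. Itga2, the collagen receptor gene next to Itga1 on chromosome 13, was too low to test. Exons of Itga1 share 4.11% of their bases with a predicted gene on the same strand.

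Leukocyte alpha subunits were low but for Itgal, the alpha chain of LFA-1. It had 12.7, 26.6 and 13.9 CPM in 4OHT samples, against 9.31, 8.95 and 9.48 CPM in vehicle samples, and the highest of these values rests on 14 reads. The groups did not overlap, and Itgal rose 1.46-fold (log2 fold change 0.54, SE 0.11, 95% interval 0.32 to 0.77, edgeR adjusted p = 0.000834). It did not pass with DESeq2 (adjusted p = 0.0683), and without the shallow 4OHT replicate 2 the log2 fold change was 0.52 (adjusted p = 0.00124). Its beta partner Itgb2 had 0.209 ± 0.20 CPM in 4OHT samples and 0.317 ± 0.20 CPM in vehicle samples. Summed over 10 blood cell markers, levels were 135 to 152 CPM in 4OHT samples and 163 to 170 CPM in vehicle samples, of which Laptm5 made up 132 ± 7.76 CPM in 4OHT samples and 150.5 ± 3.05 CPM in vehicle samples. Of these 10 markers, 6 were tested, and 3 fell, 0 rose and 3 did not pass, where 10.8% of all genes fell. Those that fell were Laptm5 (log2 fold change -0.21, edgeR adjusted p = 0.0203), Cd34 (-0.52, adjusted p = 0.0125) and Coro1a (-0.94, adjusted p = 9e-05). Cd34 and Coro1a had 0 reads in 4OHT replicate 2. Ptprc, the gene for the pan-leukocyte antigen CD45, was too low to test, with 3, 0 and 1 reads in 4OHT samples and 0 in every vehicle sample. Itgam and Itgae, alpha subunits of macrophages and of mucosal lymphocytes, did not pass, with log2 differences of -0.02 and -0.03. Itgam counts are uncertain, because 70.0% of its exon bases are shared with a predicted gene on the same strand, and so are those of Itga10, with 34.5%.

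None of the tested beta subunits changed detectably. Of the 8 genes, 6 were tested and 0 passed with edgeR, where 21.9% of all genes passed. A share over 6 genes is coarse. Of the 6, 0 had an unadjusted p under 0.05, and 0 passed under any alternative fit. Itgb1 had 183, 164 and 176 CPM in 4OHT samples, against 174, 175 and 177 CPM in vehicle samples. The values overlapped, and the interval of the log2 difference ran from -0.09 to 0.15 (adjusted p = 0.795). Itgb5, a vitronectin receptor subunit that pairs with alpha v, had 45.8, 47.6 and 47.7 CPM in 4OHT samples, against 50.9, 48.2 and 45.3 CPM in vehicle samples (log2 difference -0.05, 95% interval -0.19 to 0.09, adjusted p = 0.683). Itgb7, best known from gut-homing lymphocytes, had 21.6, 13.3 and 23.5 CPM in 4OHT samples, against 25.0, 24.5 and 24.1 CPM in vehicle samples. All 3 4OHT values lay lower, but the log2 difference of -0.14 did not pass (95% interval -0.31 to 0.03, adjusted p = 0.23). Itgb4, the hemidesmosome partner of alpha6, averaged 17.8 ± 6.05 CPM in 4OHT samples and 14.2 ± 1.26 CPM in vehicle samples, and Itgb3, a partner of alpha v, 6.58 ± 2.55 CPM in 4OHT samples and 5.06 ± 0.45 CPM in vehicle samples. Neither passed, with log2 differences of 0.01 (Itgb4) and 0.00 (Itgb3).

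Put together per transcript length, the laminin-, RGD- and collagen-binding shares of the alpha pool and that of Itga9 lay apart between the groups. These shares recombine the subunit levels given above and depend on each other, so they are a description and no separate evidence. The laminin-binding subunits made up 66.1, 64.4 and 65.6% of the summed alpha level in 4OHT samples, against 69.3, 69.8 and 69.0% in vehicle samples. The RGD-binding subunits made up 26.2, 26.3 and 26.8% in 4OHT samples, against 20.8, 20.3 and 21.5% in vehicle samples. In both classes the groups were apart, by -4.00 percentage points for laminin-binding and 5.58 percentage points for RGD-binding subunits. Itga9 alone made up 3.08 ± 0.29% in 4OHT samples and 6.11 ± 0.25% in vehicle samples, and the collagen-binding subunits 0.654 ± 0.22% in 4OHT samples and 0.360 ± 0.03% in vehicle samples (SD, n = 3 each). Each of these 4 shares had an exact two-sided permutation p of 0.1, the smallest that 3 against 3 samples can give. The collagen-binding share was 0.536, 0.902 and 0.523% in 4OHT samples, against 0.395, 0.344 and 0.342% in vehicle samples. Its highest value, in 4OHT replicate 2, rests on 1 read each of Itga1, Itga10 and Itga11. The alpha sum was 106 ± 2.13 CPM per kb in 4OHT samples and 114 ± 1.33 CPM per kb in vehicle samples (exact permutation p = 0.1), and the beta sum was 71.4 ± 2.96 CPM per kb in 4OHT samples and 72.9 ± 0.82 CPM per kb in vehicle samples (exact permutation p = 0.7). Itgb1 held 64.0 ± 1.37% of the beta sum in 4OHT samples and 62.9 ± 1.20% in vehicle samples (exact permutation p = 0.4). These shares are of transcripts and say nothing of dimers at the cell surface.

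**Figure D3:**
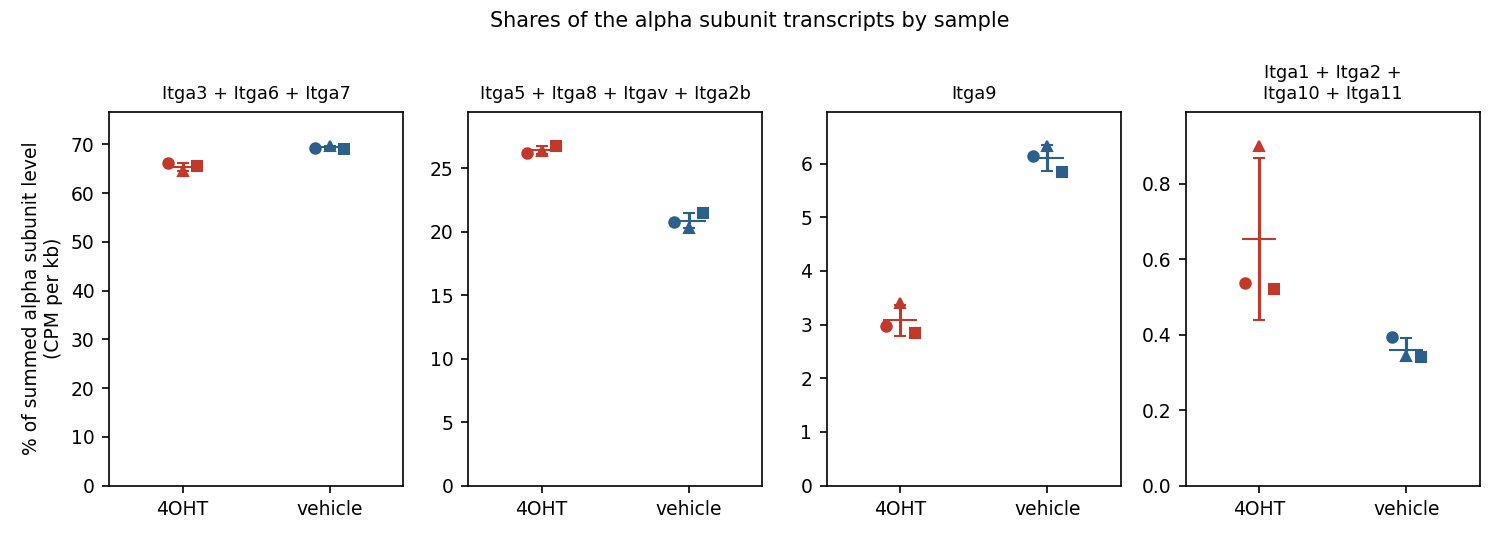
Share of the summed alpha subunit level (percent, from CPM per kb) held by each ligand class and by Itga9 in every library, 4OHT samples left of vehicle samples; horizontal lines are means and whiskers SD (n = 3). The RGD-binding share is 26.2 to 26.8% in 4OHT samples and 20.3 to 21.5% in vehicle samples, and the laminin-binding share is 64.4 to 66.1% in 4OHT samples and 69.0 to 69.8% in vehicle samples.

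Among the collagens, 4 chains rose, 2 fell and 27 did not pass, of 33 tested (18.2% called, against 21.9% of all genes), with a median log2 fold change of 0.19. Among the chains described here, which leave out Col4a1 and Col4a2, Col18a1 had the largest share. It held 84.8 ± 1.26% of their summed level per length in 4OHT samples and 84.1 ± 0.16% in vehicle samples. Its product is found in basement membranes and yields the fragment endostatin. It had 481, 493 and 526 CPM in 4OHT samples, against 471, 453 and 454 CPM in vehicle samples. All 3 4OHT samples lay higher, but the log2 difference of 0.13 (SE 0.06, 95% interval 0.0050 to 0.25) did not pass (edgeR adjusted p = 0.132). A fit blocked on replicate number called it (adjusted p = 0.0441), as did a fit without 4OHT replicate 1 (adjusted p = 0.0109).

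Fibrillar chains gave the largest rise. Col5a2, a chain of collagen V, which regulates the width of collagen I fibrils, had 3.07, 5.71 and 3.14 CPM in 4OHT samples, against 0.814, 0.850 and 0.499 CPM in vehicle samples. The groups did not overlap, and the highest value rests on 3 reads. Col5a2 rose 4.25-fold (log2 fold change 2.09, SE 0.21, 95% interval 1.65 to 2.52, edgeR adjusted p = 1.82e-07). Its usual partner chain Col5a1 averaged 23.4 ± 4.44 CPM in 4OHT samples and 21.7 ± 0.99 CPM in vehicle samples and did not pass (log2 difference -0.05, 95% interval -0.22 to 0.12). Col11a1, a chain of collagen XI, the cartilage relative of collagen V, had 11.9, 5.71 and 11.3 CPM in 4OHT samples, against 5.87, 5.30 and 5.95 CPM in vehicle samples. The groups overlap through the 3 reads of 4OHT replicate 2. In the fit, which weighs libraries by depth, Col11a1 was 2.00-fold higher (log2 fold change 1.0, SE 0.11, edgeR adjusted p = 6.19e-07), and without that library the log2 fold change was 1.02 (adjusted p = 1.18e-05).

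The fibrillar collagens of connective tissue stayed low. Col1a1, the main chain of collagen I, averaged 1.84 ± 0.14 CPM in 4OHT samples and 1.67 ± 0.06 CPM in vehicle samples (log2 difference 0.09, adjusted p = 0.802). Col2a1, the collagen of cartilage, averaged 2.68 ± 2.33 CPM in 4OHT samples and 3.92 ± 0.38 CPM in vehicle samples (log2 difference 0.03, adjusted p = 0.937). Its 4OHT values were 3.80, 0 and 4.23 CPM, so the lower mean comes from the zero of the shallow library. Col1a2, the partner chain of Col1a1 (log2 difference 0.88, adjusted p = 0.105), Col27a1 (0.40, adjusted p = 0.164) and Col5a3 (-0.43, adjusted p = 0.0763) did not pass, but did in the blocked fit (adjusted p = 0.0368, 0.04 and 0.0252). Col1a2 also passed without 4OHT replicate 1 (adjusted p = 0.0438). For Col5a3 the mean was 3.51 ± 1.92 CPM in 4OHT samples and 3.33 ± 0.54 CPM in vehicle samples, the other way round from the fit; in a mean the shallow 4OHT library counts as much as the deep ones. The block thus called 5 of the 9 tested fibrillar chains, against 2 without it. Over all 15814 genes tested it called 4341, against 3464 without it. Col11a2 did not pass. Col3a1, the neighbour of Col5a2 on chromosome 1, and Col24a1 were too low to test. Summed over 13 fibroblast or mesenchyme markers, levels were 24.6 to 32.4 CPM in 4OHT samples and 35.7 to 38.4 CPM in vehicle samples, 8 of the 13 were under 1 CPM, and Postn and Fap were at 0 in all libraries; the part of these markers in the results was not tested. Thy1 was lower, with 6.64 ± 0.87 CPM in 4OHT samples and 15.9 ± 0.58 CPM in vehicle samples, and the other 5 tested markers of that list did not pass. The summed level of the fibrillar chains was 6.45, 7.01 and 6.48 CPM per kb in 4OHT samples, against 5.52, 5.34 and 5.35 CPM per kb in vehicle samples (exact two-sided permutation p = 0.1, the smallest possible).

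Of the 9 FACIT chains, all tested, 1 rose, 1 fell and 7 did not pass (22.2% called, against 21.9% of all genes). Col16a1, found with fibrils and at basement membranes, had 0.438, 0 and 0.356 CPM in 4OHT samples, against 0.738, 1.05 and 0.959 CPM in vehicle samples. It fell (log2 fold change -1.1, SE 0.30, edgeR adjusted p = 0.00985), and DESeq2 gave it no adjusted p. The 0 of 4OHT replicate 2 carries no weight, since 1 read there is 1.90 CPM, above every vehicle value; 4OHT replicates 1 and 3 lay below all vehicle samples. Col19a1 had 12, 0 and 5 reads in 4OHT samples, against 2, 2 and 2 in vehicle samples (log2 fold change 1.62, SE 0.60, edgeR adjusted p = 0.0473). It met the count minimum only through 4OHT replicate 1, in the group where it was called higher. The zero of the shallow library overlaps the vehicle values, and this call did not hold without any one library except 4OHT replicate 3 (adjusted p 0.0515 to 0.288), nor with limma-voom (0.116) or no filter (0.0737). Its neighbour Col9a1, a chain of the cartilage collagen IX, gave a log2 difference of 1.47 and did not pass (adjusted p = 0.102), but did with limma-voom (adjusted p = 0.0451). It had 13, 0 and 9 reads in 4OHT samples, against 9, 0 and 0 in vehicle samples, so without vehicle replicate 1 no vehicle read was left (adjusted p = 0.00118). The more abundant collagen IX chains Col9a2 and Col9a3 averaged 6.78 ± 4.24 and 8.41 ± 0.83 CPM in 4OHT samples and 8.66 ± 0.53 and 7.64 ± 0.84 CPM in vehicle samples, and neither passed. Col12a1, Col14a1, Col20a1 and Col22a1 did not pass either, with log2 differences from -0.09 to 0.47.

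The beaded-filament collagen VI chains moved in both directions. Col6a4, a chain that mice use and humans have lost, had 3.89, 3.81 and 2.78 CPM in 4OHT samples, against 5.98, 6.20 and 5.83 CPM in vehicle samples. It was lower in every 4OHT sample, one of them with 2 reads, at 57.3% of vehicle (log2 fold change -0.80, SE 0.14, 95% interval -1.1 to -0.51, edgeR adjusted p = 0.000237), although the adjusted p was 0.104 with DESeq2. Its neighbours on chromosome 9, Col6a5 and Col6a6, gave log2 differences of 0.08 and 0.57 and did not pass, although Col6a6 did without vehicle replicate 3 (adjusted p = 0.0481). Col6a3, a chain of the main collagen VI, had 12, 0 and 10 reads in 4OHT samples, against 4, 2 and 2 in vehicle samples (log2 fold change 1.62, SE 0.52, edgeR adjusted p = 0.0256). It met the count minimum only through 4OHT replicate 1, in the group where it was called higher. Its call was lost with limma-voom (adjusted p = 0.0608) and without 4OHT replicate 3 (0.0917), vehicle replicate 1 (0.114) or vehicle replicate 3 (0.0601). Col6a2 averaged 0.558 ± 0.52 CPM in 4OHT samples and 0.554 ± 0.06 CPM in vehicle samples and did not pass, and its neighbour Col6a1 was too low to test.

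The remaining collagens held no call. The transmembrane chains Col13a1, Col17a1, Col23a1 and Col25a1 gave log2 differences from -0.30 to 0.96, with Col13a1 the most abundant at 3.6 ± 1.52 CPM in 4OHT samples and 5.25 ± 1.08 CPM in vehicle samples. Col7a1, the anchoring fibril collagen of skin, differed by -0.03, and the minor collagen IV chain Col4a5 by 0.37. The short-chain Col8a2 and Col10a1 differed by 0.31 and -0.76, and Col26a1 by 0.77 (adjusted p = 0.0586, but 0.0386 without 4OHT replicate 3, 0.0197 without vehicle replicate 1 and 0.044 with no filter). The 14 members that were not tested were Itga2, Itgad, Itgax, Itgb6, Itgb8, Col3a1, Col4a3, Col4a4, Col4a6, Col6a1, Col8a1, Col15a1, Col24a1 and Col28a1. Their highest count in any library was 9, their totals over the 6 libraries were 0 to 29, and Itgad had 0 in all. Just inside the minimum of 10 lay Col10a1 with 10 counts in its higher replicate 1, and just outside lay Col15a1 and Col4a6 with 8. Near it lay also the called chains Col19a1 and Col6a3, each with 12 counts in 4OHT replicate 1. In vehicle replicate 1 they had 2 and 4 counts. The count that let them in was thus also part of their test, so these calls carry little weight.

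Collagen receptors outside the integrin family were led by Ddr2, a receptor tyrosine kinase for fibrillar collagen. It had 28.2, 13.3 and 27.0 CPM in 4OHT samples, against 8.80, 7.05 and 8.02 CPM in vehicle samples. The groups did not overlap, and Ddr2 rose 3.36-fold (log2 fold change 1.75, SE 0.10, edgeR adjusted p = 7.23e-11). Its relative Ddr1, the epithelial form, averaged 38.3 ± 1.79 CPM in 4OHT samples and 41.1 ± 3.24 CPM in vehicle samples and did not pass. Of the 4 tested receptors of this list, 1 rose and 3 did not pass (25.0% called, against 21.9% of all genes). Lair1 (log2 difference 1.40, adjusted p = 0.136) passed with the replicate block (adjusted p = 0.0279) and without 4OHT replicate 3 (0.0125). It was near the floor, with 15, 1 and 3 reads in 4OHT samples, against 6, 2 and 0 in vehicle samples. It met the count minimum only through 4OHT replicate 1.

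Among other integrin ligands and their matrix partners, 18 of 23 genes were tested, and 8 rose, 4 fell and 6 did not pass. That is a share of 66.7% called against 21.9% of all genes. This list, like the adhesome and biosynthesis lists below, was chosen with earlier results of these data known. The shares of these lists are descriptions only. Ctgf and Cyr61, secreted matrix proteins that bind alpha v and other integrins, both rose. Ctgf had 29.7, 28.5 and 31.8 CPM in 4OHT samples, against 12.1, 12 and 12.4 CPM in vehicle samples (log2 fold change 1.33, edgeR adjusted p = 8.14e-11), and Cyr61 averaged 27.3 ± 3.92 CPM in 4OHT samples and 14.9 ± 1.1 CPM in vehicle samples (0.97, adjusted p = 1.61e-08). The basement membrane genes Hspg2, for perlecan, and Nid1, for nidogen, rose as well. Hspg2 averaged 672 ± 18.9 CPM in 4OHT samples and 386 ± 43.7 CPM in vehicle samples (log2 fold change 0.80, adjusted p = 3.36e-08), and Nid1 349.5 ± 6.15 CPM in 4OHT samples and 255 ± 6.41 CPM in vehicle samples (0.46, adjusted p = 2.99e-06). Both groups were apart for each of these 4 genes. The lowest value of the list, named for that reason, was that of Nov, with 30, 1 and 14 reads in 4OHT samples and 91, 29 and 43 reads in vehicle samples (log2 fold change -1.64, adjusted p = 4.04e-05, but 0.184 with DESeq2). Icam1, a ligand of LFA-1, averaged 139 ± 13.4 CPM in 4OHT samples and 148 ± 2.71 CPM in vehicle samples and did not pass (adjusted p = 0.0802), but did with the block (adjusted p = 0.0186) and with limma-voom (0.0324). Fbn1 and Emilin1, with log2 differences of -0.27 and -0.15, did not pass, and Vtn, Tnc, Thbs2, Vcam1 and Postn were too low to test.

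Inside the cell, 6 of 32 adhesome genes rose, 4 fell and 22 did not pass (31.3% called, against 21.9% of all genes), with a median log2 fold change of 0.07. Dab2, an endocytic adaptor for integrins that is also in the endoderm marker list, averaged 9.62 ± 3.45 CPM in 4OHT samples and 2.22 ± 0.21 CPM in vehicle samples (log2 fold change 2.37, edgeR adjusted p = 3.34e-11). The parvins, which join the kinase ILK to actin, moved apart. Parvb fell, with 100.2 ± 5.97 CPM in 4OHT samples and 143 ± 0.70 CPM in vehicle samples (log2 fold change -0.54, adjusted p = 1.02e-06). Parva rose, with a log2 fold change of 0.45 (adjusted p = 0.00367, but 0.443 with DESeq2), and a mean of 8.62 ± 2.52 CPM in 4OHT samples and 7.24 ± 0.51 CPM in vehicle samples. Tns1, a tensin that binds beta tails, fell, with 47.6 ± 4.96 CPM in 4OHT samples and 69.0 ± 3.57 CPM in vehicle samples (log2 fold change -0.47, adjusted p = 1.92e-05). Actn4, Tln1 and Tns3, the most abundant genes of the list that did not pass, gave log2 differences of -0.01, 0.12 and 0.15, and Tns3 passed with the block (adjusted p = 0.0197). Without 4OHT replicate 3, Tln1 (adjusted p = 0.0466) and Tns3 (0.0213) passed.

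The collagen biosynthesis list had 28 of 30 genes tested, of which 6 rose, 5 fell and 17 did not pass (39.3% called, against 21.9% of all genes, median log2 fold change -0.06). Pcolce and Pcolce2, enhancers of procollagen cleavage, averaged 61.3 ± 7.88 and 27.1 ± 3.72 CPM in 4OHT samples and 105 ± 1.41 and 42.8 ± 1.45 CPM in vehicle samples. Their log2 fold changes were -0.70 and -0.56 (edgeR adjusted p = 7.98e-08 and 3.51e-06). Of the 4 cross-linking oxidases tested, Loxl2 fell, Loxl1 rose, and Loxl3 and Loxl4 did not pass. Loxl2 averaged 7.35 ± 3.10 CPM in 4OHT samples and 18.3 ± 4.24 CPM in vehicle samples (log2 fold change -1.01, adjusted p = 8.77e-06), and Loxl1 4.46 ± 0.57 CPM in 4OHT samples and 2.80 ± 0.35 CPM in vehicle samples (log2 fold change 0.79, adjusted p = 0.000312, but 0.219 with DESeq2). P4hb, Ppib and Glt25d1, abundant enzymes of the endoplasmic reticulum, did not pass, with log2 differences of 0.05, -0.07 and -0.05. P4ha3 and Lox were too low to test.

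**Figure D4:**
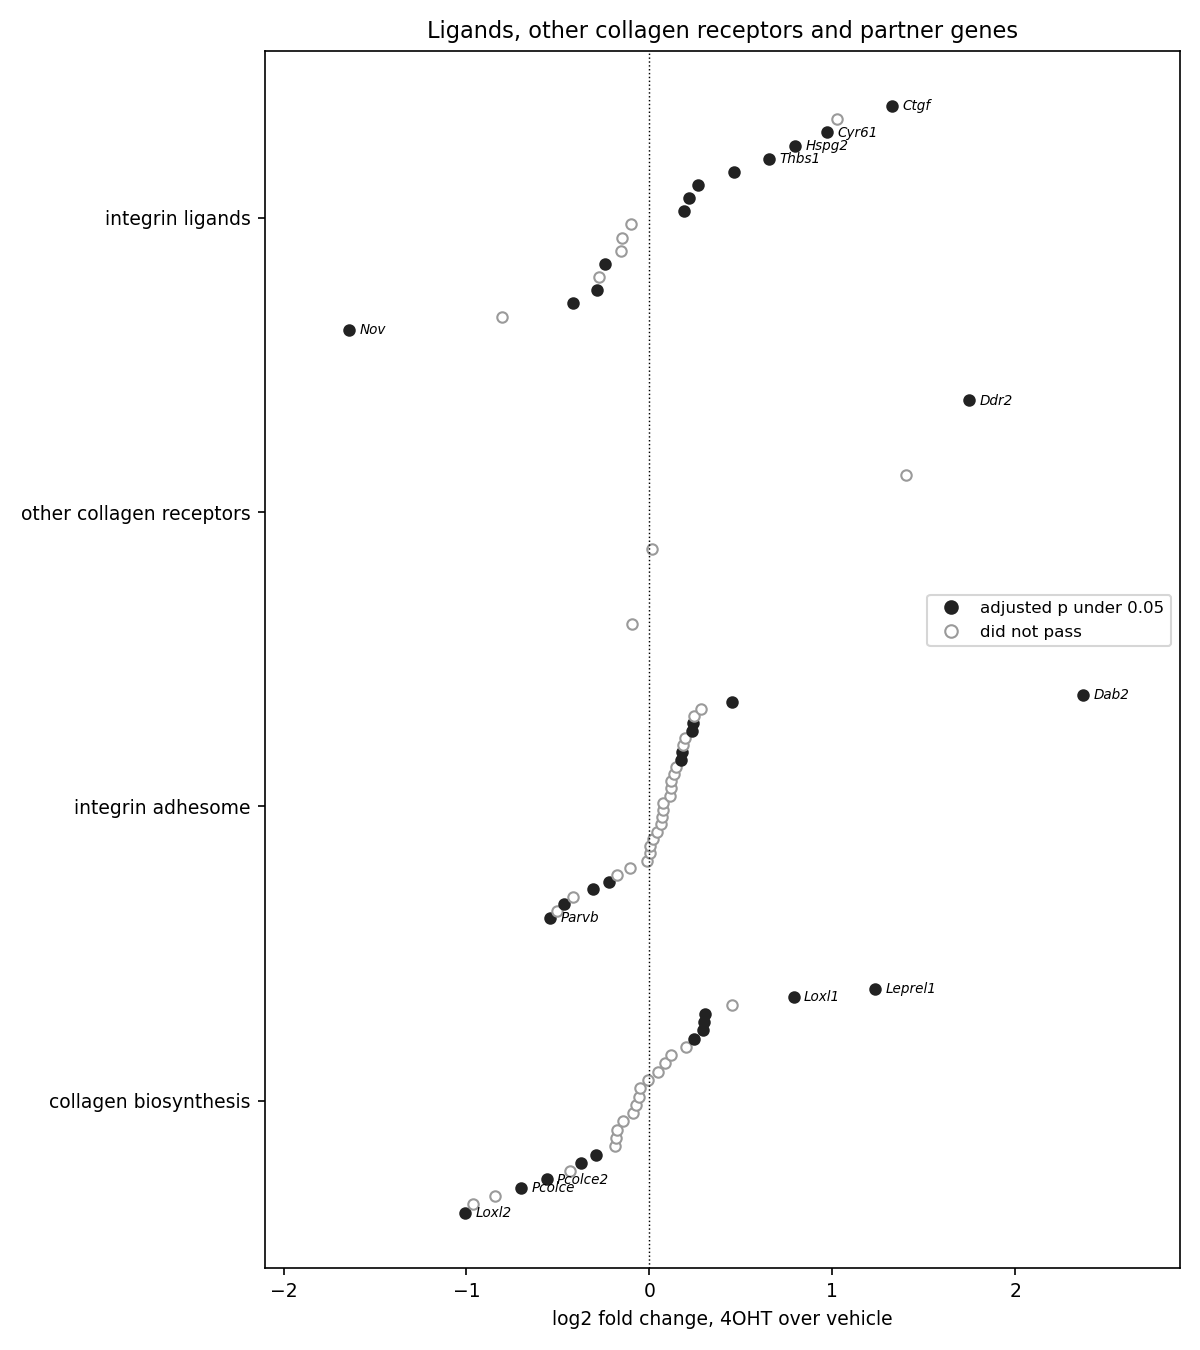
Log2 fold change (4OHT over vehicle, horizontal axis) of the tested genes of 4 related lists, sorted within each list, with filled points where the adjusted p was under 0.05. Dab2 lies farthest right at 2.37, Ddr2 at 1.75 and Ctgf at 1.33, and Nov lies farthest left at -1.64.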

How the data were processed

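Read counts per gene symbol were deposited by the authors for 6 polyA RNA-seq libraries (NEBNext Ultra, per the labels' protocols). The submitters' processing notes name STAR, DESeq and mm9 without versions; the counting tool, annotation and strand setting are not stated there or elsewhere in the sources used here. Groups and replicate numbers came from the labels. The members and gene lists were chosen with earlier results of these data known.

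Genes with at least 10 counts in replicate 1 of either group (15814 of 23999) entered edgeR 4.0.16 (R 4.3.3): TMM scaling, a quasi-likelihood fit with a treatment term, Benjamini-Hochberg adjustment, prior count 0.125 and 95% intervals. The procedure was tested on simulated data. Levels are CPM; CPM per kb divides by the longest coding transcript in GENCODE M21. Shares and sums were compared by exact permutation (scipy 1.17.1). Exon overlaps came from the same annotation and near-identical copies from blastn 2.17.0 (95% identity over 50% of a transcript). Promoters are those of RefSeq, which had 51 of the 68 members.

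Full values are given for members that passed without overlap between groups and with 50 or more normalised counts on average where higher, and for the 8 with the highest level per length. Of each list up to 4 genes with the smallest adjusted p and up to 3 abundant ones that did not pass are named. Alternatives were other scaling, DESeq2 1.42.0, limma 3.58.1 (voom), other filters, a replicate block and leaving out each library.

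Deviations of same-numbered samples from their group means correlated at 0.57, 0.15 and 0.39 over 3632 genes for replicates 1, 2 and 3, so the numbers were taken as possible pairs. This rests on the data, since no label says what a number marks, and 4OHT replicate 3 correlated more with vehicle replicate 2 (0.45) than with its own number. No libraries were identical or agreed within sampling noise.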

Additional observations from a re-analysis of the deposited data

How the results depend on the processing

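None of the 12 members called changed direction under the alternatives run. Itga9, Col5a2, Col11a1, Itga1, Itgav and Itga3 passed in all of them, and Col16a1 in each that gave it a value. Over all genes, 3464 passed in the edgeR fit, 977 with DESeq2, 2199 with limma-voom, 4341 with the replicate block and 2478 to 4245 without 1 library. Of the 12 members called, DESeq2 kept 6 (it called 6 in all and gave no adjusted p for 20 of the 54 tested). Leaving out 1 library kept 9 to 11 of the 12, and leaving out the shallow 4OHT replicate 2 kept 11. With new calls included, 10 to 15 members were called without 1 library. The 6 integrins called became 5 to 8 without 1 library. The 6 collagens became 2 with DESeq2, 3 with a mean of at least 50 counts, 10 with the replicate block and 5 to 7 without 1 library. The 10 adhesome genes called became 5 with DESeq2, 14 with the replicate block and 6 to 12 without 1 library. The 11 biosynthesis genes became 3, 14 and 9 to 13 under these settings, and the 12 ligands 6, 15 and 11 to 12. The 1 other collagen receptor became 2 with the replicate block and 1 to 2 without 1 library. The cause of these differences was not tested. Apart from the calls given with the results, the replicate block changed none among the members. Depth limits the low members: 7 tested integrins and 16 tested collagens had no read in 4OHT replicate 2.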
